A study of Mus musculus with 12 samples.

Results

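The simple epithelial keratins examined here are Krt7, Krt8, Krt18 and Krt19, followed in back skin of C57BL/6 mouse embryos at stage E18.5, shortly before birth. Every probe annotated to 1 of these 4 symbols was taken, which gave 4 probes, 1 per gene, out of 25697 probes and 16593 named genes on the array. The signals come from 12 Illumina bead arrays in 4 groups of 3: embryos labelled Type I keratin KO with the group Wild type I, and embryos labelled Type II keratin KO with the group Wild type II. Both wild-type groups carry the genotype label wild type and no group carries a treatment. The labels do not say which genes each deletion spans, whether it acts in the whole embryo, or whether each array stands for its own embryo. P-values therefore reflect only the variation among these arrays, some of which may be technical.

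Keratins are intermediate filament proteins that assemble as pairs of 1 type I and 1 type II chain. Krt8 and Krt7 are type II chains, and Krt18 and Krt19 are their usual type I partners in single-layered epithelia such as gut, liver ducts and glands. In skin the simple keratins are found in the early embryonic surface layer and the periderm, in Merkel cells and in parts of hair follicles and glands, whereas stratified epidermis is built from Krt5 with Krt14 and from Krt1 with Krt10. In the mouse genome Krt8 and Krt18 lie close together in the type II keratin region of chromosome 15, where Krt7 also lies, although Krt18 encodes a type I chain, and Krt19 lies in the type I region of chromosome 11. Embryos that lack all type II keratins are known to die before late gestation, and a line carried past this point by a Krt8 transgene has been described. The labels name no transgene, and the sources used here do not tell whether these embryos carried one.

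The probes of Krt7 and Krt8 gave signal above background and those of Krt18 and Krt19 mostly did not. Krt8 was detected (detection p under 0.05) on 12 of 12 arrays, Krt7 on 11, Krt19 on 2 and Krt18 on 1. Krt7 and Krt8 therefore entered the test across all genes, which required detection on at least 3 arrays and kept 11163 features, and Krt18 and Krt19 did not. In bulk skin, fewer cells of a type and less RNA per cell cannot be told apart.

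Because Krt7 and Krt8 carry the differences below, their promoter windows are shown, 250 bases before to 50 after the start annotated by RefSeq on GRCm38.p6. Capitals mark the GC box GGGCGG and the TATA box TATAAA on either strand.
Krt7, chr15:101412153-101412452, plus strand: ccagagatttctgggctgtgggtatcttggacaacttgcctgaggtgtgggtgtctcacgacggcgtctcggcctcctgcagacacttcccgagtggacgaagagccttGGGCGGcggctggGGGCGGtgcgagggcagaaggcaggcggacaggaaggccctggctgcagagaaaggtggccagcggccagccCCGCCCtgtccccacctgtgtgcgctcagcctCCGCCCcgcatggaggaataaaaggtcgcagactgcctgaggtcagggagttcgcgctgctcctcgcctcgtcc
Krt8, chr15:102004293-102004592, minus strand: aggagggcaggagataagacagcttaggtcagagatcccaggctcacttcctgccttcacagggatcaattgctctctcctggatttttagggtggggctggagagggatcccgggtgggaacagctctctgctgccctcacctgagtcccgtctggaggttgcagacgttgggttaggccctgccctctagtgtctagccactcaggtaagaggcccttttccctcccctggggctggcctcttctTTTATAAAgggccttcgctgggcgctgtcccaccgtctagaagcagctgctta
The 2 windows differ in these letters. The Krt7 window held 4 GC boxes, 2 on each strand, and no TATAAA, with 66.3% G and C. The Krt8 window held TATAAA, where its forward and reverse matches overlap in the run TTTATAAA at the annotated start, and no GC box, with 58.0% G and C. Of 32544 promoter windows of this length, 35.9% held the GC box and 13.6% held TATAAA. The AP-1 site TGANTCA (7.79% of windows) and the antioxidant response element core TGACNNNGC (12.4%), searched on both strands and free to overlap other motifs, matched in neither window. The window of Krt18 matched none of the 4 motifs. These matches describe letters and not bound sites. A promoter window was matched for 3 of the 4 genes.

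**Figure D1:**
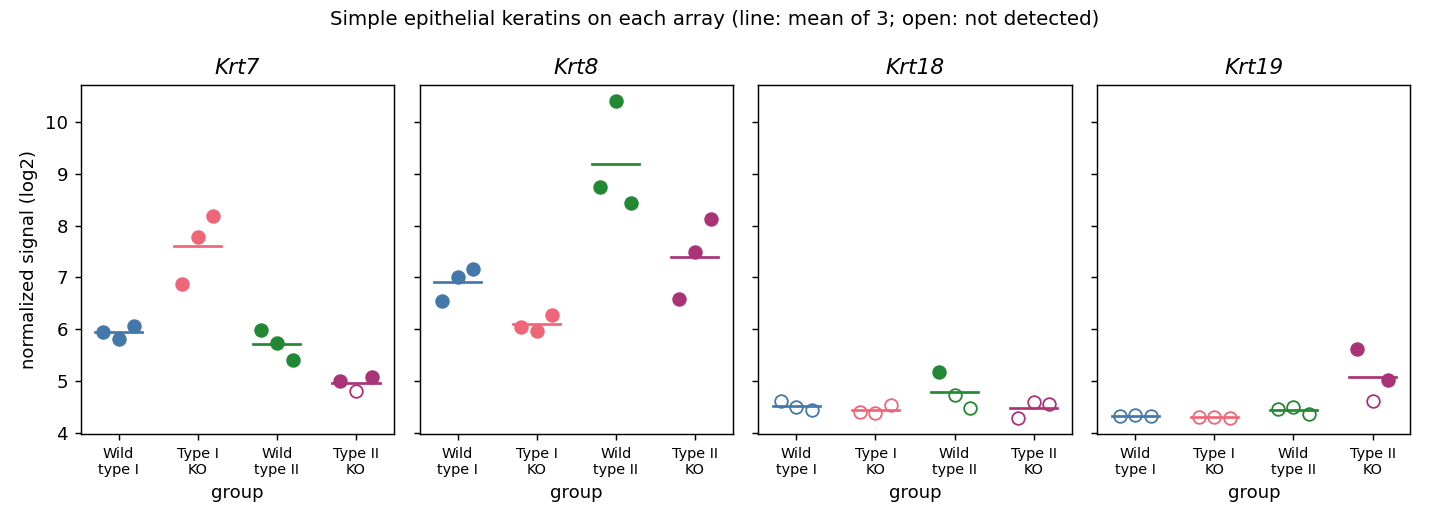
Normalized log2 signal (vertical axis) of the 4 genes on each of the 12 arrays, by group (horizontal axis). Filled points were detected, open points were not, and lines are means of 3 arrays. Krt7 lies between 6.88 and 8.19 in the type I knockout, above every other array, and Krt8 reaches 10.40 on 1 array of Wild type II.

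The arrays followed the labelled deletions for Krt14, Krt5 and Krt1. Krt14 was detected on 3 of 3 Wild type I arrays and 0 of 3 type I knockout arrays, and Krt5 and Krt1 on 3 of 3 Wild type II arrays and 0 of 3 type II knockout arrays. Krt10 was still detected on 1 type I knockout array, and the type II keratin Krt80 was detected on 12 of 12 arrays. Between 13272 and 13693 probes were detected per array, and correlations between arrays within a group were 0.962 to 0.991. Over all genes, 27.8% were called (adjusted p under 0.05) in the type I comparison, 12.2% higher and 15.6% lower in the knockout, and 37.5% in the type II comparison, 15.7% higher and 21.8% lower. The difference between these changes was called for 3.05%, 1.85% of all genes having the lower change in the type II knockout, and the wild types differed for 1.54%, 0.6% being higher and 0.941% lower in Wild type II. With median scaling in place of quantile normalization, 30.4% of the type II calls were rises, against 41.8%, and 25.3% of the calls for the difference were positive, against 39.6%. The median change of all genes was -0.11 in the type I and -0.08 in the type II comparison on the log2 scale.

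Krt7, a type II chain of glandular and ductal epithelia, rose in the type I knockout. Its log2 signal was 5.95, 5.81 and 6.06 on the Wild type I arrays and 6.88, 7.77 and 8.19 on the type I knockout arrays. All knockout arrays lay above all wild-type arrays, in a comparison in which 46.9% of all genes did not overlap, and the knockout arrays were also spread more widely (SD 0.67 against 0.13, n = 3 each). The change was 1.67 ± 0.27 (log2, ± standard error), a 3.18-fold rise, with an adjusted p of 0.00103 in limma's test across all genes and a 95% interval of 1.05 to 2.29. Between arrays with the same replicate number the rise was 0.93, 1.96 and 2.13. The number before the hyphen in the sample titles, whose meaning the labels do not give, is shared by replicates 1 and 2 of both groups and differs for replicate 3, and with it as a block the change was 1.67 ± 0.25 (adjusted p = 0.00151).

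Krt7 moved the other way in the type II knockout, whose label names its own gene family. Its log2 signal was 5.99, 5.74 and 5.41 in Wild type II and 5.01, 4.81 and 5.09 in the type II knockout. The groups did not overlap, as for 49.3% of all genes, and the knockout signal was close to background: the raw signals of 118.7, 103.5 and 106.5 had detection p-values of 0.0363, 0.0865 and 0.0338. The change of -0.75 ± 0.27 passed limma's threshold narrowly (adjusted p = 0.0465, with 0.0071 to 0.291 over 23 alternatives), and 14 of these alternatives put it above 0.05. They include the fits without Wild type II replicate 1 (adjusted p = 0.153) or 2 (0.108), without type II knockout replicate 1 (0.0841), 2 (0.118) or 3 (0.0597), and without Wild type I replicate 1 (0.0619), 2 (0.0589) or 3 (0.0534) or type I knockout replicate 2 (0.059). In the type II series each replicate number has its own title prefix, and within the 3 prefixes the change was -0.98, -0.93 and -0.33.

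The 2 changes of Krt7 differed by more than the spread between arrays. The type II change minus the type I change was -2.42 ± 0.38 (adjusted p = 0.00552, 95% interval -3.29 to -1.54, limma) in a test that 3.05% of all genes passed. In the 2 wild types Krt7 lay at 5.94 ± 0.13 and 5.71 ± 0.29 (SD, n = 3 each) with overlapping arrays. The wild-type difference of -0.23 ± 0.27 was not called (adjusted p = 0.713, 95% interval -0.85 to 0.39).

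Krt8, the type II chain that pairs with Krt18, fell in the type II knockout but stayed detected on all 3 knockout arrays. Its log2 signal was 8.75, 10.40 and 8.43 in Wild type II and 6.58, 7.49 and 8.12 in the type II knockout. The groups did not overlap, as for 49.3% of all genes, and within the 3 title prefixes the change was -2.18, -2.92 and -0.31. The change was -1.80 ± 0.46 (adjusted p = 0.00973, 95% interval -2.87 to -0.73, limma). Wild type II replicate 2, with a raw signal of 1591 against 460.8 and 436.7 on the other arrays of its group, sets part of this size: without it the change was -1.19 ± 0.36 (adjusted p = 0.0278, with 0.00345 to 0.0487 over 23 alternatives). Of the epidermal type II keratins, Krt5 was at least 49.8-fold lower and Krt1 at least 69.6-fold lower in the same knockout arrays, taking the undetected signals at the lowest value of a detected probe. Whether a transgene, a related transcript or the pseudogene Krt8-ps on chromosome 7 gives part of the remaining Krt8 signal was not tested, since probe sequences were not used here.

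In the type I knockout Krt8 was lower on every array, without passing the test. Its log2 signal was 6.55, 7.02 and 7.17 in Wild type I and 6.05, 5.97 and 6.27 in the type I knockout. The arrays did not overlap, as for 46.9% of all genes. The change of -0.82 ± 0.46 was not called when all 12 arrays shared 1 estimate of the spread (adjusted p = 0.211, 95% interval -1.89 to 0.25, limma), an estimate that includes the wide spread of Krt8 in the type II series. It was called with the type I series fitted alone (adjusted p = 0.0135). Of these 2 type II chains, Krt7 was thus higher and called in the type I knockout and Krt8 lower and not called. The type II change of Krt8 minus its type I change was -0.98 ± 0.66 (adjusted p = 0.495), and its 95% interval of -2.50 to 0.53 holds both no difference and a large one.

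**Figure D2:**
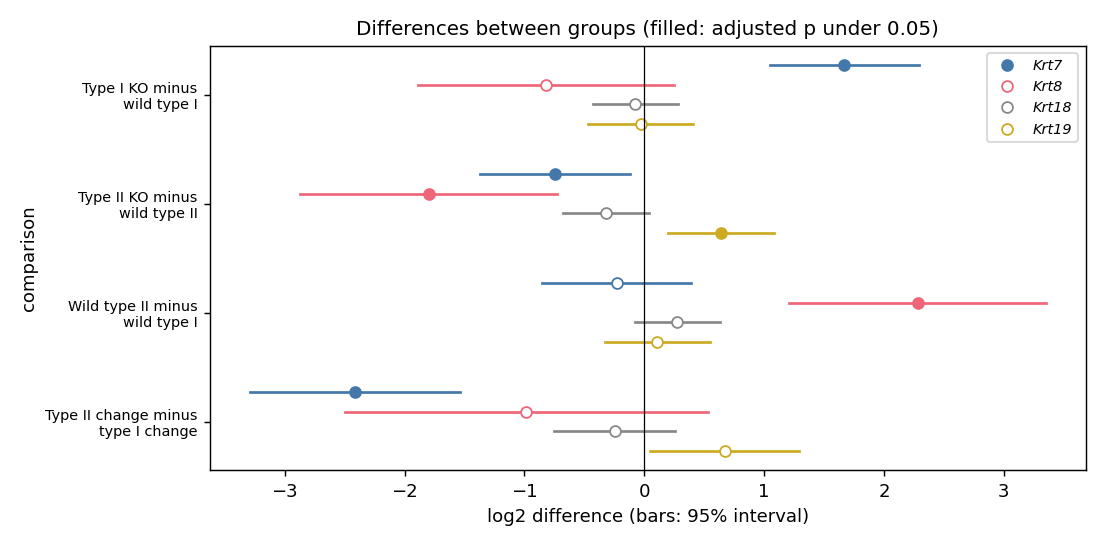
Log2 difference of each gene (horizontal axis) in 4 comparisons (vertical axis), with 95% intervals computed on 8 residual degrees of freedom. Filled points had an adjusted p under 0.05. Krt18 and Krt19 come from the fit without a filter on dim probes. Krt7 stands at 1.67 in the type I and -0.75 in the type II comparison, and Krt8 at 2.28 between the wild types.

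The level of Krt8 also differed between the wild types. Wild type II averaged 9.20 ± 1.06 and Wild type I 6.91 ± 0.32 (log2, SD, n = 3 each), and the arrays did not overlap, as for 28% of all genes. The difference was 2.28 ± 0.46 (4.86-fold, adjusted p = 0.0379, 95% interval 1.21 to 3.35, limma), with 0.6% of all genes called higher in Wild type II. The adjusted p ran from 0.0247 to 0.0953 over 20 alternatives and missed the threshold in 10 of them. Without Wild type II replicate 2 the difference was 1.68 ± 0.36 (adjusted p = 0.08) and without replicate 1 of that group 2.51 ± 0.52 (0.0802). Each of the fits without Wild type I replicate 1 (0.0797), 2 (0.0876) or 3 (0.0953) or without type I knockout replicate 1 (0.0634), 2 (0.0649) or 3 (0.0531) also missed it. In order of mean level the groups ran from the type I knockout (6.10) through Wild type I (6.91) and the type II knockout (7.40) to Wild type II (9.20). The arrays of Wild type I (6.55 to 7.17) overlapped those of the type II knockout (6.58 to 8.12), and these neighbours in the order were not tested against each other.

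The genes most like Krt8 over the 12 arrays were keratins of the hair follicle. By the root mean square difference of log2 signals, each centred on the gene's own mean over the 12 arrays, they were Krt26 (0.45), Krt35 (0.57), Krt33a (0.62) and Krt34 (0.65), against a standard deviation of 1.32 for Krt8 itself. Krt26 is a type I keratin of the inner root sheath, and Krt33a, Krt34 and Krt35 are type I keratins of the hair shaft. All 4 are named by the likeness measure alone. Their log2 signals on Wild type II replicate 2 were 7.91, 8.60, 7.84 and 8.30, each the highest of its 12 arrays, as for Krt8. Between the wild types the difference was 1.79 for Krt26, 1.91 for Krt35, 1.78 for Krt33a and 1.71 for Krt34, which follows from choosing them by likeness to Krt8 on the same arrays.

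**Figure D3:**
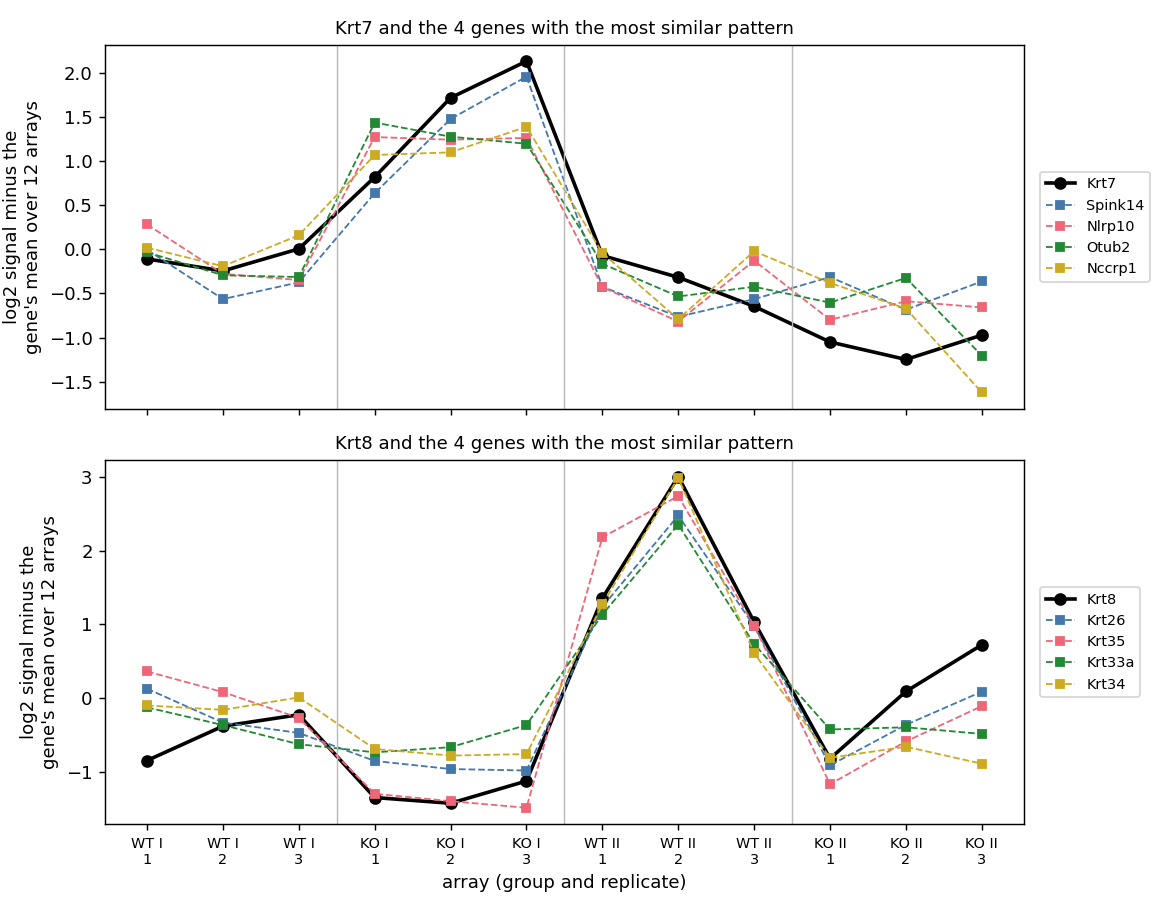
Log2 signal minus the gene's mean over 12 arrays (vertical axis) for Krt7 and Krt8 (black) and the 4 genes most like each (coloured), by array (horizontal axis; WT is wild type, KO is knockout). Krt8 and the 4 hair keratins are all highest on replicate 2 of Wild type II, and Krt7 and its 4 genes are highest in the type I knockout.

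Hair genes in general were described with lists written after the pattern of Krt8 was seen, so no test is drawn from them. Over 11 measured hair shaft and inner root sheath keratins, which include the 4 genes above, the mean log2 signal was 6.52, 6.01 and 6.14 in Wild type I and 7.55, 8.32 and 6.65 in Wild type II. The 3 called higher in Wild type II, Krt26, Krt33a and Krt35, were all chosen for their likeness to Krt8. Of the other 7, 0 were called, against 0.6% of all genes called higher, and their differences ran from 0.06 to 2.19. Over 11 measured hair matrix and shaft genes that are not keratins, 10 were higher in Wild type II, 0 were called and the median difference was 0.57. Hoxc13, a homeobox factor of the hair matrix that acts on hair keratin genes, differed by 0.57 ± 0.26 (adjusted p = 0.293). In both lists Wild type II replicate 2 was the highest array, at 8.32 and 7.78.

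In the type II knockout the mean of the 11 hair keratins was 4.88, 5.28 and 5.21, and in the type I knockout it was 5.41 to 5.52. The list mixes type I and type II chains, so each knockout deletes a share of it, and these means depend on which chains were lost. The 11 hair genes that are not keratins averaged 6.44, 6.73 and 6.37 in the type II knockout and 6.27, 6.52 and 6.31 in the type I knockout, with overlapping arrays. Krt8 was at 6.58, 7.49 and 8.12 in the type II knockout and at 5.97 to 6.27 in the type I knockout. The knockouts were not tested against each other, and the part of hair follicles in the differences of Krt8 was not tested.

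**Figure D4:**
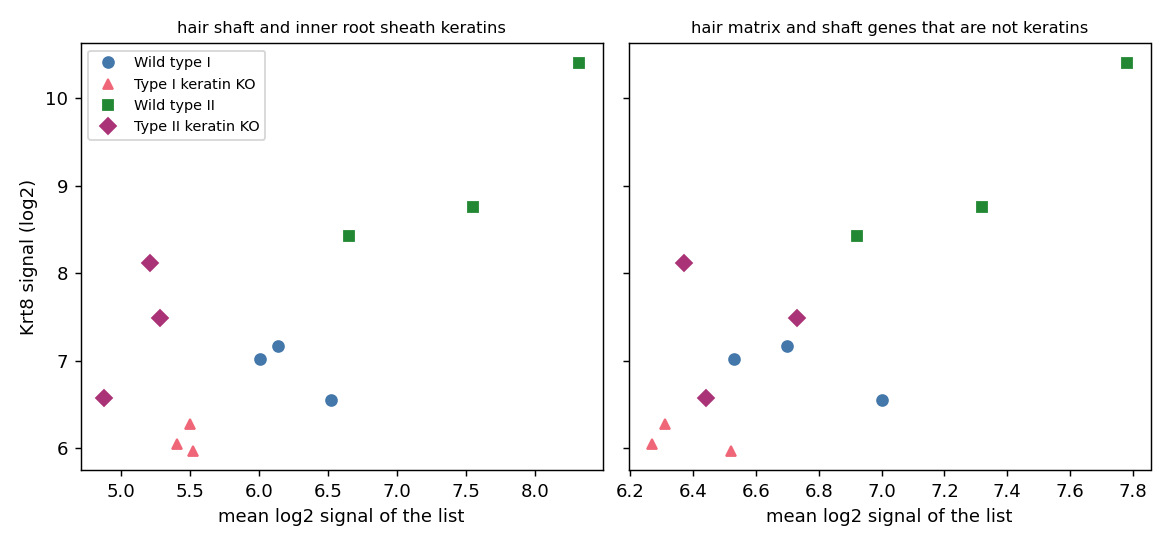
Log2 signal of Krt8 (vertical axis) against the mean log2 signal of 11 hair keratins (left) and of 11 other hair genes (right) on each array (points, coloured by group). The 3 Wild type II arrays lie at 6.65 to 8.32 for the hair keratins and at 8.43 to 10.40 for Krt8, and the type II knockout arrays have Krt8 at 6.58 to 8.12 with hair keratins at 4.88 to 5.28.

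Merkel cells are touch receptor cells of the epidermis that contain Krt8, Krt18 and Krt20. Of 14 marker genes, 6 entered the test, and the defining ones gave little signal. Atoh1, the factor that specifies these cells, was detected on 0 arrays, and Krt20, a simple keratin of Merkel cells and gut, on 3. The summed signal of the 6 was 540 to 698 in Wild type I, 420 to 473 in the type I knockout, 419 to 554 in Wild type II and 248 to 355 in the type II knockout. In each knockout 2 of the 6 were called lower and 0 higher. Of all genes, 15.6% were called lower in the type I and 21.8% in the type II comparison. In the type II knockout Isl1 (-1.39 ± 0.34, adjusted p = 0.00728) and Gfi1 (-1.08 ± 0.30, adjusted p = 0.0133) fell, and in the type I knockout Piezo2 (-0.61 ± 0.17, adjusted p = 0.0229) and Syp (-0.56 ± 0.13, adjusted p = 0.00845) fell. None of these was called in the other knockout. Sox2 (0.17 in the type I and 0.04 in the type II knockout) and Krt20 (-0.31 and -0.13) were called in neither. The part of Merkel cells in the differences of Krt8 was not tested. Of 4 markers of mesothelium, another Krt8-containing epithelium, 0 entered the test.

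The genes most like Krt7 were Spink14 (0.40), Nlrp10 (0.48), Otub2 (0.48) and Nccrp1 (0.49), by the same measure and against a standard deviation of 1.06 for Krt7. Otub2 is a deubiquitinase and Spink14 belongs to the Kazal family of serine protease inhibitors. Chosen on the same arrays, on which Krt7 is high in the type I knockout, their rise there follows from the choice and is given as a description: Spink14 rose by 1.67 ± 0.28, Nlrp10 by 1.37 ± 0.19, Otub2 by 1.52 ± 0.20 and Nccrp1 by 1.19 ± 0.29. Spink14 also shared the order of the knockout arrays, at 5.83, 6.67 and 7.15, while Nlrp10 stayed at 6.90 to 6.93. None of the 4 was called in the type II knockout, where their changes ran from -0.61 to 0.13. Spink14 was detected on 4 arrays in all.

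Sebaceous glands and periderm, where Krt7 or other simple keratins can be found, were followed by their markers. Of 11 sebaceous markers 6 entered the test. In each knockout 1 of these 6 rose and 2 fell, beside the shares of all genes given above. In the type I knockout Plin2, a lipid droplet coat protein, rose (0.95 ± 0.14). Scd1, a fatty acid desaturase (-1.735 ± 0.569), and Pparg (-1.07 ± 0.37) fell there. In the type II knockout Plin2 rose (0.61 ± 0.14), and Dgat2 (-1.29 ± 0.29) and Krt79 fell. Scd1 was not called in the type II knockout (-0.75 ± 0.57, adjusted p = 0.331, limma). The summed signal of the list was 4130 to 10500 in Wild type I, 4210 to 4420 in the type I knockout, 5110 to 8000 in Wild type II and 1740 to 3750 in the type II knockout. It includes the type II keratin Krt79, which was at least 68.0-fold lower in the type II knockout. Mc5r, Scd3 and Awat2 were detected on 0 arrays. Of 8 periderm markers 4 entered the test, and Cldn6, Krt4 and Krt13 were detected on 0 arrays. Beside the same shares of all genes as above, 3 of these 4 rose and 0 fell in the type II knockout. The other, Krt6a, was not detected on any array of the type II series, so no fall could be seen. In the type I knockout 3 rose and 1 fell. The 1 that fell was Krt17, of the deleted family. Krt6a, which entered the test through the type I knockout arrays alone, was among those that rose. Sfn, a 14-3-3 protein of keratinocytes, rose by 2.95 ± 0.19 and the barrier factor Grhl3 by 2.51 ± 0.22 in the type I knockout, and by 2.80 ± 0.19 and 2.25 ± 0.22 in the type II knockout. The periderm sum was 8500 to 10000 in Wild type I, 3800 to 4830 in the type I knockout, 12200 to 14700 in Wild type II and 24000 to 28000 in the type II knockout; it includes the deleted Krt17. The part of these cell types in the rise of Krt7 was not tested.

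Krt18, the type I partner of Krt8, was at background in nearly all samples. Its raw signals ran from 93.53 to 127.1 with a median of 104.7. The single detected array was Wild type II replicate 1, at a raw signal of 115.0 and a detection p of 0.0201. In the fit without a filter on dim probes, over 18312 features, the change was -0.07 ± 0.16 in the type I comparison (95% interval -0.43 to 0.28) and -0.32 ± 0.16 in the type II comparison (95% interval -0.68 to 0.04), and neither was called (adjusted p = 0.858 and 0.189). That fit called 16% of its features in the type I and 22.3% in the type II comparison. Since the wild types gave hardly any signal, these arrays cannot show whether Krt18 RNA was lost in either knockout.

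Krt19, a short type I keratin that lacks a tail domain, was detected only on type II knockout arrays among the 12. Its raw signals there were 134.6, 99.9 and 105.4, with detection p-values of 0.00376, 0.201 and 0.0401. On the other 9 arrays raw signals were 94.97 to 109.2 and detection p-values 0.335 to 0.974. The log2 signal was 5.62, 4.62 and 5.02 in the type II knockout and 4.46, 4.50 and 4.38 in Wild type II. The groups did not overlap, as for 49.3% of the genes that entered the test across all genes. Since Wild type II gave 0 of 3 detected arrays, only a bound holds: taking its signals at the lowest value of a detected probe, Krt19 was at least 1.09-fold higher in the type II knockout. The fit without a filter on dim probes called it (adjusted p = 0.036, limma), as it did 22.3% of its features. The fitted difference was 0.64 ± 0.19, between signals of which the lower were not above background. The type II change minus the type I change, 0.67 ± 0.27, was not called (adjusted p = 0.326), in a test that 1.41% of the features passed. In the type I knockout, where Krt19 belongs to the deleted family, and in Wild type I it was detected on 0 of 6 arrays, so its loss could not be checked.

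Genomic neighbours in the deleted families mostly fell. In the RefSeq order on chromosome 15, the nearest measured genes before Krt8 are Krt78 and Krt79. In the type II knockout Krt78 fell by 2.33 ± 0.32 (adjusted p = 0.000223) and Krt79 was at least 68.0-fold lower (adjusted p = 6.69e-08). After Krt18 come Eif4b, a translation initiation factor, at 1.06 ± 0.46 (adjusted p = 0.0926), and Tns2, a focal adhesion protein, at -0.25 ± 0.17 (adjusted p = 0.279), neither called. Around Krt7 the nearest measured genes are Krt80, at 0.39 ± 0.14 (adjusted p = 0.0473), and Krt86, which was at least 2.22-fold lower (adjusted p = 0.0179). The call of Krt80 was lost under 18 of 23 alternatives, with adjusted p-values of 0.03 to 0.19. Krt84, which follows Krt86, was not well above background on any type II array, so no change could be seen. Next to Krt19 on chromosome 11, Krt15 was at least 97.8-fold lower (adjusted p = 1.01e-09) and Krt14 at least 583-fold lower (adjusted p = 4.15e-14) in the type I knockout.

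The other keratins also changed, and more of the measured type I keratins fell than rose in each knockout. Of 14 measured other type I keratins, 0 rose and 9 fell in the type I knockout, and 2 rose and 8 fell in the type II knockout. In the type II knockout Krt16 and Krt17 rose, and Krt14 (0.205 ± 0.112) and Krt23 (0.312 ± 0.308) were not called. Krt26, Krt33a and Krt35, which fell there, were also called higher in Wild type II than in Wild type I. Of 15 measured other type II keratins, 6 rose and 0 fell in the type I knockout, and 1 rose and 9 fell in the type II knockout. Beside these counts stand 12.2% of all genes higher and 15.6% lower in the type I comparison, and 15.7% and 21.8% in the type II comparison. Among the type II keratins that rose in the type I knockout, Krt6a and Krt84 were detected on its 3 arrays alone. They entered the test only through the group in which they are high, so their rise is given as a description. Krt84 and Krt90, undetected in Wild type I, were at least 1.19-fold and 1.67-fold higher. The stress keratins Krt6a, Krt6b, Krt16 and Krt17, which appear in wounded and hyperproliferative epidermis, changed strongly. Krt6a was at least 71.1-fold higher (adjusted p = 8.7e-11) and Krt6b, detected on 1 of 3 Wild type I arrays, rose by 9.28 ± 0.17 in the type I knockout, and Krt16 rose by 6.42 ± 0.39 and Krt17 by 0.82 ± 0.12 in the type II knockout. In the other 4 cases Krt16 and Krt17 were at least 13.6-fold and 274-fold lower in the type I knockout, Krt6b was at least 1.18-fold lower in the type II knockout (adjusted p = 0.00167), and Krt6a was not detected on any type II array.

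Of the genes that accompany simple keratins in single-layered epithelia, several rose in each knockout. Of 14 measured members, 8 rose and 1 fell in the type I knockout (median 0.87, against -0.11 over all genes), and 6 rose and 0 fell in the type II knockout (median 0.72, against -0.08). Of all genes, 12.2% rose and 15.6% fell in the type I and 15.7% rose and 21.8% fell in the type II comparison. Cldn4, a tight junction claudin, rose by 2.63 ± 0.35 and 3.97 ± 0.35, Elf3, an epithelial Ets factor, by 2.68 ± 0.37 and 4.31 ± 0.37, and Esrp2, an epithelial splicing factor, by 1.17 ± 0.16 and 1.83 ± 0.16, in the type I and type II knockout. The member that fell was the type I keratin Krt23, at least 57.6-fold lower. For Cldn4, Elf3 and Esrp2, named for their small adjusted p, both changes had the same sign, unlike Krt7. Other members did not share this, such as Cldn7 (0.155 and -0.179) and Muc1 (-0.035 and 0.255), which were called in neither knockout. The difference between changes was called for 1 of the 14, beside 3.05% of all genes. That member was Krt23 (6.63 ± 0.44), of the family deleted in the type I knockout.

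Of 15 measured transcription factors known to act on simple keratin genes, 6 rose and 0 fell in the type I knockout (median 0.37) and 10 rose and 0 fell in the type II knockout (median 0.66), beside 12.2% and 15.7% of all genes that rose. Junb, an AP-1 subunit, rose by 2.43 ± 0.25 and 3.03 ± 0.25, and Tfap2a, an AP-2 factor of surface epithelium, by 1.47 ± 0.16 and 1.58 ± 0.16. Fos rose by 3.13 ± 0.40 in the type II knockout. Klf4, a barrier factor, rose by 1.27 ± 0.17 and 0.78 ± 0.17. Of 12 measured partners and linkers of keratin filaments, 6 rose and 1 fell in the type I knockout (median 0.69) and 7 rose and 1 fell in the type II knockout (median 0.59), beside the same shares of all genes. Pkp1, a desmosomal plakophilin, rose by 1.08 ± 0.16 and 1.36 ± 0.16, and Jup, the desmosomal plakoglobin, by 1.88 ± 0.31 and 2.12 ± 0.31. In the same samples dermal fibroblast, muscle and fat markers were lower, with list medians of -0.46, -0.82 and -1.47 in the type I and -0.52, -1.61 and -1.81 in the type II knockout, while of 4 measured endothelial markers 0 were called and the medians were -0.34 and -0.01. Their part in these results was not tested.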

How the data were processed

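Average bead signals were deposited as an intensity per probe, called non-normalized in the file headers, with a detection p-value per probe and array, deposited by the authors. No source used here names the scanner software. The authors' deposited processed table, by its values a background-subtracted, quantile-normalized intensity on a linear scale (medians 16.3 to 16.4, 25.2% to 25.3% of values negative), served as an alternative. Signals were corrected by normexp (negative probes deduced from detection p, offset 16), then quantile normalized and logged (log2) in limma 3.58.1 (R 4.3.3). Probes with a detection p under 0.05 on at least 3 arrays entered (14744), the brightest per gene standing for it. One model with a term per group (8 residual degrees of freedom) was fitted with lmFit and eBayes, adjusted by Benjamini-Hochberg over all 11163 features. The script was tested on simulated data. Of the probes 23978 had 1 symbol, 0 several and 1719 none.

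Named genes are the 4 keratins, the 4 genes most like each of Krt7 and Krt8, nearest measured neighbours, up to 3 called genes per list with the smallest adjusted p, and Krt14, Krt10, Krt5 and Krt1. A few others (Scd1, Plin2, Isl1, Gfi1, Piezo2, Syp, Sfn, Grhl3, Jup, Klf4, Hoxc13) were chosen after their values were seen. Likeness was not computed for Krt18 and Krt19, which lay at background. The members and lists were chosen with earlier results of these data known. Precision is limited by having 3 arrays in each group. Alternatives were background correction, offset, normalization, filter, probe choice, samples fitted, intensity trend, blocks and each array left out.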

Additional observations from a re-analysis of the deposited data

Results flagged for a closer look

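Krt7 changed differently in the 2 knockouts by a test of the difference itself, with a type II change minus type I change of -2.42 ± 0.38 on the log2 scale (adjusted p = 0.00552, limma, n = 3 arrays per group). It was higher on 3 of 3 type I knockout arrays and lower on 3 of 3 type II knockout arrays than on all arrays of their wild types. Groups also did not overlap for 46.9% of all genes in the type I and 49.3% in the type II comparison. The type II knockout signal of Krt7 was close to background, and its fall there was not called in 14 of 23 alternatives.

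Among genes most like Krt7, the same difference was called for Nlrp10 (-1.59), Otub2 (-1.85) and Nccrp1 (-1.80), which were chosen for this likeness. Among keratins of the deleted families it was 9.96 for Krt14, 8.27 for Krt10, 4.60 for Krt15, 10.73 for Krt16, -7.02 for Krt5, -5.87 for Krt1, -2.34 for Krt78, -6.22 for Krt79 and -0.90 for Krt84, on fitted values that depend on the offset where a group was not detected.

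The probe of Krt19, which did not enter the test across all genes, was detected on 2 arrays, both of the type II knockout, and on 0 of the 6 wild-type arrays. Groups of 3 arrays are too small for the search for single arrays that stand apart.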

How the results depend on the processing

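The rise of Krt7 in the type I knockout (0.94 to 2.05), the difference between its changes (-2.80 to -1.18) and the fall of Krt8 in the type II knockout (-2.18 to -1.19) kept direction and call under all 23, 22 and 23 alternatives run. The fall of Krt7 in the type II knockout lost its call without background correction (-0.25, adjusted p = 0.291), with median scaling (-0.74, 0.069), in the authors' processed table (-0.74, 0.0544), without the filter on dim probes (-0.75, 0.0881) and with an offset of 50 (-0.41, 0.159), and leaving out 1 array gave -0.89 to -0.61. Krt8 in the type I knockout was called, among all alternatives run, only when the type I series was fitted alone (-0.82, adjusted p = 0.0135), and leaving out 1 array gave -0.995 to -0.69. The wild-type difference of Krt8 lost its call without background correction (1.70, adjusted p = 0.0552) and without the filter (2.28, 0.0761), and leaving out 1 array gave 1.68 to 2.67. The cause was not tested. Uncalled differences kept their sign: leaving out 1 array gave -1.37 to -0.38 for the difference between the changes of Krt8 and -0.37 to -0.08 for Krt7 between the wild types.

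Counts of called genes moved most for the weaker comparisons. The difference between changes called 341 genes, 545 with the title prefix as a block and 170 to 647 with 1 array left out (170 without Wild type II replicate 1, 174 and 186 without type I knockout replicates 1 and 2, 188 without Wild type II replicate 3, 210 without Wild type I replicate 2, 647 without type II knockout replicate 3). The wild types differed in 172 genes, 111 without the filter and 36 to 251 with 1 array left out (36, 37 and 82 without Wild type II replicates 1, 2 and 3, 60 and 52 without Wild type I replicates 2 and 3, 87, 83 and 112 without type I knockout replicates 1, 2 and 3). The type I and type II comparisons called 2092 to 3666 and 3180 to 4713. With median scaling 30.4% of type II calls were rises, against 41.8%, and 25.3% against 39.6% for the difference.

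Deviations from the group mean correlated at 0.06 to 0.36 (type I series) and 0.03 to 0.14 (type II series) between samples with the same replicate number. Not every sample correlated best with its own number. In the type I series pairs that shared a title prefix correlated at 0.06 to 0.36 and pairs that did not at -0.28 to -0.17. In the type II series pairs with different prefixes correlated at -0.16 to 0.07. The main model has no term for the prefix. With the prefix as a block the counts were 3666, 4713 and 545, and no call of Krt7 or Krt8 changed. With the replicate block Krt7 changed by 1.67 (adjusted p = 0.00247) and -0.75 (0.0392), and Krt8 by -0.82 (0.165) and -1.80 (0.00998), so no call of these genes changed, and the counts were 3174, 4318 and 324. Signal over background limits Krt18 and Krt19, which have no value outside the fit without a filter. No paired analysis was possible for the wild types because they share no pairing.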
